A study of Mus musculus with 35 samples.

Results

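The sterol arm of cholesterol synthesis, the run of enzymes that turns squalene into cholesterol, was followed through 9 genes of the 14870 in the deposited expression matrix: Sqle, Lss, Cyp51, Msmo1, Nsdhl, Hsd17b7, Ebp, Sc5d and Dhcr7. They were chosen by name as enzymes of this pathway, and each had 1 row in the matrix. Bulk RNA of tissue punches was sequenced in 35 libraries of mice deficient in Shank3 (KO) and wild-type mice (WT). The tissue was medial prefrontal cortex (mPFC), which takes part in social behaviour. Shank3 encodes a scaffold protein of the synapse. The labels give the genotype only as KO or WT, with no allele, strain or age.

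Both genotypes received antibiotics with acetate (KO_abx_and_acetate, n = 4, and WT_abx_and_acetate, n = 4), acetate alone (KO_acetate, n = 5, and WT_acetate, n = 5), antibiotics alone (KO_abx, n = 3, and WT_abx, n = 4) or plain water as control (KO_control, n = 4, and WT_control, n = 6). Gut bacteria make acetate from fibre, and antibiotics deplete them. Libraries are named by group and by a number that pairs none of them. Whether the libraries of a group are separate animals is not in the labels, and p-values cover only the spread among libraries, which may be technical.

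Cholesterol in the brain is made almost wholly in place, because lipoproteins of the blood do not cross the blood-brain barrier, and oligodendrocytes and astrocytes make much of it. The mevalonate arm builds squalene from acetyl-CoA, a molecule that cells can also make from acetate. The sterol arm then adds oxygen to squalene, closes the rings and trims the product step by step. Genes of both arms are known targets of SREBP2, a membrane-bound transcription factor that is released when membrane sterol falls.

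Depth was 12.8 to 28.0 M (mega) reads over the measured genes, with a median of 21.8 M, and the RNA integrity number ran from 8.8 to 9.3. Shank3 stood at 4.07 to 5.11 log2 CPM (log2 of reads scaled to library size) in the 16 KO libraries. It stood at 8.22 to 8.85 in 16 WT libraries and at 7.48 to 8.08 in the other 3, which are labelled WT_abx 4, WT_acetate 2 and WT_acetate 5. Y-linked genes went against the sex label in the libraries labelled WT_acetate 2, WT_acetate 4, WT_acetate 5 and WT_abx 3. Excitatory neuron markers were abundant, up to a mean of 12.05 log2 CPM for Camk2a. Of the meningeal and choroid plexus markers, 9 of 10 were in the matrix, the highest at a mean of 3.5 log2 CPM. KO_acetate 1 stood apart by high striatal markers and WT_abx 4 by high meningeal and choroid plexus markers.

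The enzymes work in the order in which they are described here. Sqle (squalene epoxidase) and Lss (lanosterol synthase) make the first sterol. Cyp51, Msmo1, Nsdhl and Hsd17b7 strip methyl groups from it. Ebp and Sc5d rearrange and add double bonds, and Dhcr7 reduces one of them on the way to cholesterol.

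The promoter table of RefSeq (GRCm38.p6) held 8 of the 9 genes, all but Sqle, in 10 windows that reach from 250 bases before to 50 bases after a transcription start. The stretches of 200 bases just before the start are shown for Msmo1, Nsdhl, Cyp51 and Dhcr7, whose values are given in full below, since CCAAT boxes near the start are a known feature of sterol-regulated promoters. Capitals mark CCAAT or its complement ATTGG. They lie at chr8:64733579-64733778 on the minus strand for Msmo1, chrX:72918321-72918520 on the plus strand for Nsdhl, chr5:4104698-4104897 on the minus strand for Cyp51 and chr7:143830014-143830213 on the plus strand for the 3rd of 3 Dhcr7 starts.
Msmo1: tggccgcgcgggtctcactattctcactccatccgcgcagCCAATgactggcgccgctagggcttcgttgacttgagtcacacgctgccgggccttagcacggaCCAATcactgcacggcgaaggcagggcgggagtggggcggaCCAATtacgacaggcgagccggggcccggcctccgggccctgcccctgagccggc
Nsdhl: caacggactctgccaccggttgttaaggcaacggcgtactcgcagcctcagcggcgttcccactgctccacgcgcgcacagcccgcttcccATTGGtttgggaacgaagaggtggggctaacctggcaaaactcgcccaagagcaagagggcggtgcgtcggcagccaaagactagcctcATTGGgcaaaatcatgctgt
Cyp51: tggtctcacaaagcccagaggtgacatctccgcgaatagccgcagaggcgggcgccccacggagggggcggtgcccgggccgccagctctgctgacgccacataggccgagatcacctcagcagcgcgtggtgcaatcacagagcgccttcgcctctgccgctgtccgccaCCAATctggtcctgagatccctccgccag
Dhcr7: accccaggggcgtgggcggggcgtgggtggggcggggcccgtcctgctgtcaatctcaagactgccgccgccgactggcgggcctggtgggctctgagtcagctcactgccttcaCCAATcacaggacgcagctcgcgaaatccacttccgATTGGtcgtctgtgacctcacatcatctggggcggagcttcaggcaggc

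CCAAT, read on both strands, was found in the windows of all 8 genes (8 of 10 windows), against 37.4% of 32851 windows in the table. The windows of Dhcr7 starts 1 and 2 held none, so the stretch shown for Dhcr7 is from its only window with a match. The GC box GGGCGG was found in the windows of all 8 genes (9 of 10 windows), against 35.7% of all windows. TCACNCCAC, a spelling of the sterol regulatory element, was found in the windows of 0 of 8 genes, against 1.24% of all windows. The motifs were searched separately and may overlap. A match describes letters in the window only.

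All 9 enzymes were well measured. The fewest reads behind a value were 142, for Ebp in WT_abx_and_acetate 4, the shallowest library, and the most were 2105, for Sqle. Per kilobase of merged exon the levels ran from 14.7 CPM for Cyp51, 12.6 for Sqle, 10.7 for Msmo1 and 10.2 for Sc5d through 6.63 for Nsdhl and 6.29 for Hsd17b7 to 4.75 for Dhcr7, 4.38 for Ebp and 4.28 for Lss. The first 4 of these levels stood above the rest of the arm. Exons of Cyp51 share 166 of their 4415 bases with Akap9 on the opposite strand, and an antisense gene lies across Lss, while the sources do not say whether counting used strand; the Cyp51 and Lss values carry that uncertainty. Akap9 averaged 6.63 ± 0.15 log2 CPM (SD, n = 35).

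The enzymes varied little over the study. Across 35 libraries the SD of a gene ran from 0.11 for Sc5d to 0.21 for Lss on the log2 scale. The 8 group means of a gene spanned 0.20 (Sc5d) to 0.45 (Sqle). KO_abx_and_acetate had the highest mean of Sqle, Lss, Cyp51, Msmo1, Nsdhl and Hsd17b7. KO_acetate had the highest mean of Sc5d and Dhcr7, and WT_acetate that of Ebp. Of the 63 pairs of neighbours in the orders of group means, 2 differed by more than the larger SD of the pair: Nsdhl in KO_abx above WT_abx_and_acetate (0.09) and Dhcr7 in KO_control above WT_abx_and_acetate (0.14). Neighbours in a sorted order lie close by construction, so this count does not measure how far the groups spread.

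**Figure D1:**
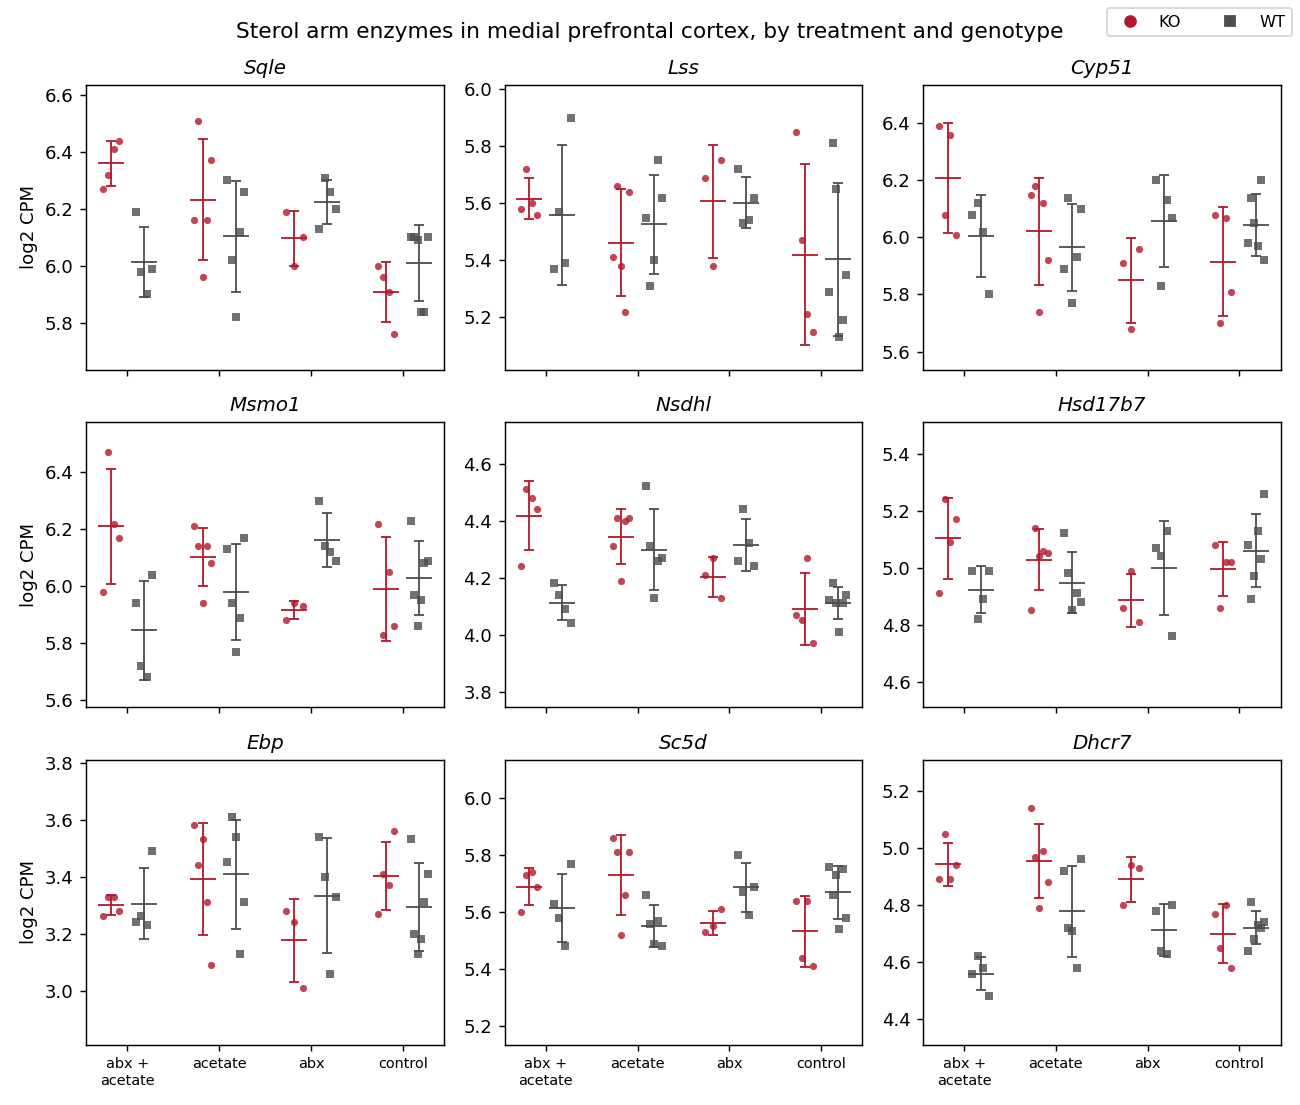
Log2 CPM of the 9 sterol arm enzymes in each library, by treatment, with KO as red circles left of WT as grey squares; bars give the group mean and SD, and each panel spans 1 log2 unit. KO_abx_and_acetate has the highest mean for 6 of the 9 genes, and the Dhcr7 panel shows all 4 KO_abx_and_acetate libraries (4.89 to 5.05) above all 4 WT_abx_and_acetate libraries (4.48 to 4.62).

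The first comparison asked what acetate did without antibiotics. In KO cortex 8 of 9 enzymes had a positive log2 fold of acetate over control, with a median of 0.12 against -0.002 over all genes. The 3 with the smallest p were Sqle, Nsdhl and Dhcr7. None of the 9 passed an adjusted p of 0.05 (limma, Benjamini-Hochberg over all genes), where 0% of all genes did; 4 had an unadjusted p under 0.05, all higher in KO_acetate, where 13.0% of all genes did. The smallest adjusted p was 0.205. The median of 0.12 was 0.21 without KO_control 1 and 0.07 without KO_control 2 or without KO_control 4.

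Sqle, whose product opens the arm, stood at 6.16, 6.51, 5.96, 6.16 and 6.37 log2 CPM in KO_acetate, against 6.0, 5.96, 5.91 and 5.76 in KO_control. The lowest KO_acetate value lay among the controls, so the groups overlapped. The fitted log2 fold was 0.32 ± 0.10 (SE), a 1.25-fold difference, with an adjusted p of 0.205 in limma.

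Nsdhl, a dehydrogenase that helps remove methyl groups, stood at 4.31, 4.41, 4.19, 4.40 and 4.41 in KO_acetate, against 4.07, 4.05, 4.27 and 3.97 in KO_control. Among controls KO_control 3 alone reached into the acetate range. The log2 fold was 0.25 ± 0.07. Dhcr7, the reductase of the last steps, stood at 5.14, 4.97, 4.79, 4.99 and 4.88 in KO_acetate, against 4.77, 4.65, 4.8 and 4.58 in KO_control. KO_acetate 3 at 4.79 lay just under KO_control 3 at 4.8, and the other 4 KO_acetate libraries lay above every control. The fitted log2 fold was 0.25 ± 0.07, and both genes had an adjusted p of 0.205 in limma. In this comparison 0 of 9 enzymes had groups that did not overlap, against 3.31% of all genes.

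In WT cortex the same comparison gave a positive log2 fold for 5 of 9 enzymes, with a median of 0.07 against 0.001 over all genes. No enzyme passed the adjusted threshold in limma, where 0.00672% of all genes did, and 1, Nsdhl, had an unadjusted p under 0.05, where 9.41% of all genes did. Without WT_control 4 a further enzyme, lower in acetate, had an unadjusted p under 0.05. Without WT_acetate 1 no enzyme higher in acetate had one and 1 lower in acetate did. The median of 0.07 was 0.03 without WT_acetate 1 and 0.01 without WT_acetate 5. Nsdhl stood at 4.52, 4.31, 4.13, 4.26 and 4.27 in WT_acetate, with a log2 fold of 0.19 ± 0.07 and an adjusted p of 0.365; its 6 WT_control libraries ran from 4.01 to 4.18 with a median of 4.11. WT_acetate 3 alone fell into the control range. Sc5d, the desaturase, had a log2 fold of -0.12 ± 0.06 (adjusted p = 0.595) and Hsd17b7, the ketoreductase, one of -0.10 ± 0.07 (adjusted p = 0.717). Without the 3 libraries of intermediate Shank3 the median was 0.02, and without the 4 whose Y-linked genes go against the label it was 0.03; 5 of 9 were positive in both.

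The difference of these responses, KO minus WT, was positive for 7 of 9 enzymes, with a median of 0.15. In limma none passed the adjusted threshold, where 0% of all genes did. An unadjusted p under 0.05 was reached by 1, Sc5d, where 3.65% of all genes did. Sc5d stood at 5.86, 5.81, 5.52, 5.66 and 5.81 in KO_acetate, against 5.64, 5.44, 5.64 and 5.41 in KO_control, and at 5.66, 5.56, 5.49, 5.57 and 5.48 in WT_acetate, against 5.54 to 5.76 (median 5.69) in WT_control. It was higher with acetate in KO and lower with acetate in WT, with overlap in both. The difference of the log2 folds was 0.32 ± 0.09, with an adjusted p of 0.997. Sqle and Dhcr7 had differences of 0.23 ± 0.13 and 0.19 ± 0.10, with the same adjusted p in limma. At an unadjusted p under 0.05 there were 2 enzymes without WT_control 4, WT_control 5, KO_control 1 or KO_control 3, and 3 without WT_acetate 1, WT_acetate 5 or KO_acetate 3. Leaving out the trio of intermediate Shank3 together also gave 2.

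Oligodendrocyte markers moved with this comparison. Their log2 fold of acetate over control was positive for 14 of 14 in KO, with a median of 0.46, and for 0 of 14 in WT, with a median of -0.34. An unadjusted p under 0.05 in limma was reached by 1 of 14 in KO (13.0% of all genes) and 0 of 14 in WT (9.41%). The mean deviation of the 14 markers was 1.886 in KO_acetate 1, 1.011 in KO_acetate 2 and 0.338 in KO_acetate 4. It was -0.146 in KO_acetate 3 and -0.824 in KO_acetate 5, and ran from -0.533 to 0.574 in KO_control. It ran from -0.739 to 0.488 in WT_acetate and from -0.309 to 0.432 in WT_control. With that mean as a covariate, the enzymes' median was 0.10 in KO and 0.09 in WT, with 8 and 5 positive, and the median of the difference was 0.11. None of the 14 markers was near 0, the lowest being Gjb1 at a mean of 2.37 log2 CPM. In bulk tissue fewer cells of a type and less RNA per cell cannot be told apart.

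Other marker lists also moved with acetate in KO cortex. The log2 fold was positive for 8 of 9 striatal neuron markers (median 0.54), for 0 of 10 astrocyte markers (median -0.16, 3 with an unadjusted p under 0.05) and for 3 of 9 endothelial markers (median -0.16, 3 lower at an unadjusted p under 0.05). It was positive for 2 of 7 oligodendrocyte precursor markers (median -0.15) and for 1 of 9 meningeal and choroid plexus markers (median -0.68). In WT the striatal list had 4 of 9 positive (median -0.00), the astrocyte list 1 of 10 (median -0.06), the endothelial list 4 of 9 (median -0.01), the precursor list 0 of 7 (median -0.16) and the meningeal and choroid plexus list 0 of 9 (median -0.36). The mean deviation of the striatal markers was 2.916 in KO_acetate 1 and ran from -0.211 to 0.069 in KO_acetate 2 to 5. It ran from -0.115 to -0.009 in KO_control, and its median was -0.036 in KO_acetate and -0.037 in KO_control. The shift of the striatal mean therefore lay mainly in KO_acetate 1. For the astrocyte markers the mean deviation ran from -0.160 to -0.011 in KO_acetate and from -0.121 to 0.212 in KO_control. For the endothelial markers it ran from -0.354 to 0.021 in KO_acetate and from -0.220 to 0.231 in KO_control. Without KO_acetate 1 the enzymes' median in KO was 0.09, with 8 positive and 4 at an unadjusted p under 0.05; beyond that the part of these lists was not tested.

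**Figure D2:**
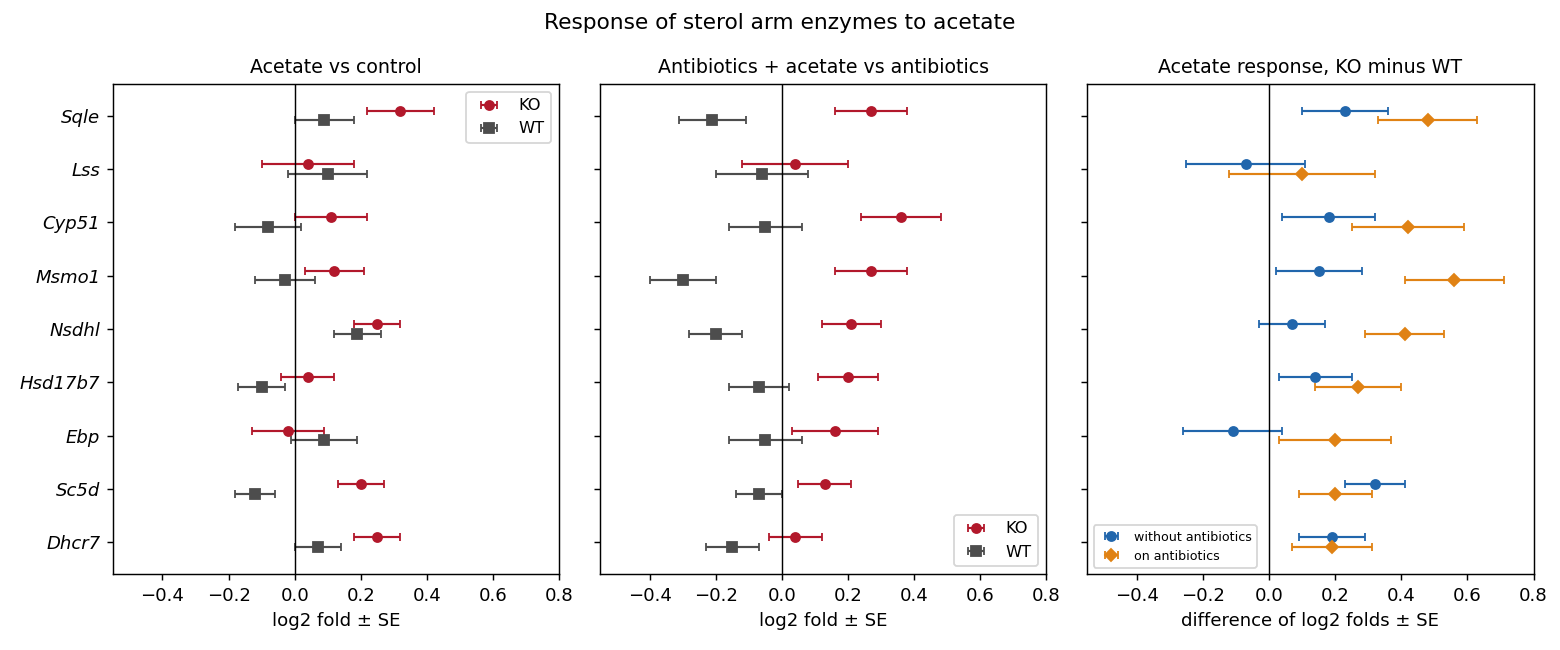
Log2 fold of acetate over control (left) and of antibiotics with acetate over antibiotics (middle) for each enzyme in KO (red circles) and WT (grey squares), and the difference of these folds, KO minus WT (right); bars are SE from the limma fit. On antibiotics all 9 KO values lie right of 0 and all 9 WT values left of it, with a median of 0.20 in KO and -0.07 in WT.

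The second comparison asked what acetate did on a background of antibiotics. In KO cortex all 9 enzymes had a positive log2 fold of antibiotics with acetate over antibiotics alone, with a median of 0.20 against 0.001 over all genes. In WT cortex 0 of 9 were positive, with a median of -0.07 against -0.002. None passed an adjusted p of 0.05 in limma in either genotype, where 0% of all genes did in KO and 0% in WT. At an unadjusted p under 0.05 there were 5 of 9 enzymes in KO, all higher (2.0% of all genes), and 3 of 9 in WT, all lower (6.12% of all genes). By sex, KO_abx_and_acetate held 3 females and 1 male and KO_abx 1 female and 2 males. Between KO males, with acetate and without, mean levels were close for Nsdhl (4.24, 4.24), Hsd17b7 (4.91, 4.93), Ebp (3.26, 3.26) and Dhcr7 (4.89, 4.87). Cyp51 was higher in the male with acetate (6.39 against 5.68 and 5.91), as was Sqle (6.27 against 6.0 and 6.19). For Nsdhl, Hsd17b7 and Ebp the difference therefore lay in 3 females (means 4.48, 5.17 and 3.31) against 1 (4.13, 4.81 and 3.01).

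Cyp51, the lanosterol demethylase, stood at 6.39, 6.08, 6.36 and 6.01 in KO_abx_and_acetate, against 5.91, 5.68 and 5.96 in KO_abx. The groups did not overlap. The log2 fold was 0.36 ± 0.12, a 1.29-fold difference, with an adjusted p of 1.0 in limma. In WT the fold was -0.05 ± 0.11.

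Msmo1, the methylsterol monooxygenase, had the clearest opposed pattern. It stood at 5.98, 6.47, 6.22 and 6.17 in KO_abx_and_acetate, against 5.88, 5.94 and 5.93 in KO_abx. It stood at 5.94, 5.72, 5.68 and 6.04 in WT_abx_and_acetate, against 6.30, 6.14, 6.12 and 6.09 in WT_abx. Every KO library with acetate lay above those without, and every WT library with acetate lay below those without. The log2 folds were 0.27 ± 0.11 in KO (adjusted p = 1.0) and -0.30 ± 0.10 in WT (adjusted p = 0.720, limma).

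Sqle stood at 6.27, 6.32, 6.41 and 6.44 in KO_abx_and_acetate, against 6.19, 6.0 and 6.10 in KO_abx. In WT it stood at 6.19, 5.98, 5.90 and 5.99 with acetate, against 6.13, 6.31, 6.26 and 6.20 without. The KO groups were apart and the WT groups overlapped through WT_abx_and_acetate 1. The fitted log2 fold was 0.27 ± 0.11 in KO and -0.21 ± 0.10 in WT, where the adjusted p was 0.805 in limma.

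Nsdhl stood at 4.24, 4.51, 4.48 and 4.44 in KO_abx_and_acetate, against 4.21, 4.27 and 4.13 in KO_abx. In WT it stood at 4.18, 4.14, 4.09 and 4.04 with acetate, against 4.26, 4.44, 4.32 and 4.24 without, with no overlap. The log2 fold was 0.21 ± 0.09 in KO (adjusted p = 1.0) and -0.20 ± 0.08 in WT (adjusted p = 0.764, limma). Dhcr7 had a log2 fold of 0.04 ± 0.08 in KO and -0.15 ± 0.08 in WT.

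Groups did not overlap for 3 of 9 enzymes in KO, Sqle, Cyp51 and Msmo1, all higher with acetate, against 5.14% of all genes. In WT this was so for Msmo1, Nsdhl and Dhcr7, all lower with acetate, against 3.07% of all genes. The KO count at an unadjusted p under 0.05 was 2 without KO_abx 3, 2 without KO_abx_and_acetate 2 and 3 without KO_abx_and_acetate 4. The WT median of -0.07 was -0.03 without WT_abx 1, -0.14 without WT_abx 2 or WT_abx_and_acetate 4, -0.12 without WT_abx 3 and -0.13 without WT_abx 4. The WT count was 1 without WT_abx 2 or without WT_abx_and_acetate 4, 2 without WT_abx 4, and 1 enzyme was positive without WT_abx 1, WT_abx_and_acetate 1 or WT_abx_and_acetate 4. Without the 3 libraries of intermediate Shank3 the WT median was -0.13 and 2 enzymes were counted, with 0 of 9 positive.

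The difference of these responses, KO minus WT, was positive for all 9 enzymes, with a median of 0.27 against 0.001 over all genes. By limma 0 of 9 passed the adjusted threshold, where 0% of all genes did, and 5 had an unadjusted p under 0.05, where 3.77% of all genes did. The difference of log2 folds was 0.56 ± 0.15 for Msmo1, 0.48 ± 0.15 for Sqle and 0.41 ± 0.12 for Nsdhl, each with an adjusted p of 1.0. Ebp, Sc5d, Dhcr7 and Lss had differences of 0.10 to 0.20. Without WT_abx 1 the count of 5 was 3. Without the 3 libraries of intermediate Shank3 all 9 were positive with a median of 0.33, and without the 4 of discordant Y-linked genes the median was 0.27 and 4 enzymes were counted. With an estimate from only the groups compared, 8 of 9 were positive.

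Oligodendrocyte markers were positive for 12 of 14 in KO on antibiotics, with a median of 0.16, and for 0 of 14 in WT, with a median of -0.42. In limma 0 of 14 had an unadjusted p under 0.05 in either genotype, where 2.0% of all genes did in KO and 6.12% in WT. The mean deviation of these markers ran from -0.915 to 0.449 in KO_abx_and_acetate and from -0.915 to 0.798 in KO_abx. It ran from -0.648 to 0.471 in WT_abx_and_acetate and from -0.170 to 0.545 in WT_abx. With that mean as a covariate the enzymes' medians were 0.20 in KO, -0.08 in WT and 0.29 for the difference, with 9, 0 and 9 positive.

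Further marker lists moved with acetate on antibiotics. In WT the log2 fold was positive for 0 of 7 oligodendrocyte precursor markers (median -0.23), 2 of 10 astrocyte markers (median -0.16), 1 of 10 microglia markers (median -0.16), 2 of 9 endothelial markers (median -0.14) and 9 of 10 excitatory neuron markers (median 0.10). In KO it was positive for 1 of 7 precursor markers (median -0.06), 8 of 10 astrocyte markers (median 0.03), 8 of 10 microglia markers (median 0.07), 4 of 9 endothelial markers (median -0.00) and 6 of 10 excitatory neuron markers (median 0.06). The KO response minus the WT response was positive for 10 of 10 microglia markers (median 0.22), 9 of 9 endothelial markers (median 0.17), 8 of 10 astrocyte markers (median 0.17) and 14 of 14 oligodendrocyte markers (median 0.55). The mean deviation of the microglia markers ran from -0.056 to 0.350 in KO_abx_and_acetate and from -0.118 to 0.121 in KO_abx, and from -0.407 to 0.119 in WT_abx_and_acetate and from -0.207 to 0.185 in WT_abx. That of the endothelial markers ran from -0.194 to 0.306 in KO_abx_and_acetate and from -0.305 to 0.183 in KO_abx, and from -0.162 to 0.121 in WT_abx_and_acetate and from -0.138 to 0.513 in WT_abx. Meningeal and choroid plexus markers were positive for 2 of 9 in KO (median -0.78) and for 2 of 9 in WT (median -0.42). Their mean deviation was 3.154 in WT_abx 4 and ran from -1.122 to 0.041 in WT_abx 1 to 3. The part of these lists in the enzymes' values was not tested.

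Averaged over both genotypes and both antibiotic states, acetate gave a positive log2 fold for all 9 enzymes, with a median of 0.05. The adjusted threshold in limma was passed by none, where 0.0672% of all genes did; 2 had an unadjusted p under 0.05, where 18.1% of all genes did. Nsdhl had the smallest adjusted p, 0.154, at 0.11 ± 0.04, beside Sqle at 0.12 ± 0.05 (adjusted p = 0.215) and Cyp51 at 0.08 ± 0.05 (adjusted p = 0.410). The count of 2 was 1 without KO_abx 2. The median of 0.05 was 0.03 without WT_abx 3 and 0.02 without WT_abx_and_acetate 4, and the 9 positive were 8 without WT_abx 4, KO_abx 2 or KO_abx_and_acetate 2 and 7 without WT_abx_and_acetate 4. The KO response minus the WT response, averaged over the antibiotic states, was positive for all 9, with a median of 0.24. None passed the adjusted threshold, where 0% of all genes did, and 7 had an unadjusted p under 0.05, where 5.3% of all genes did. The difference was 0.36 ± 0.10 for both Sqle and Msmo1 and 0.26 ± 0.07 for Sc5d, each with an adjusted p of 0.854 in limma.

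**Figure D3:**
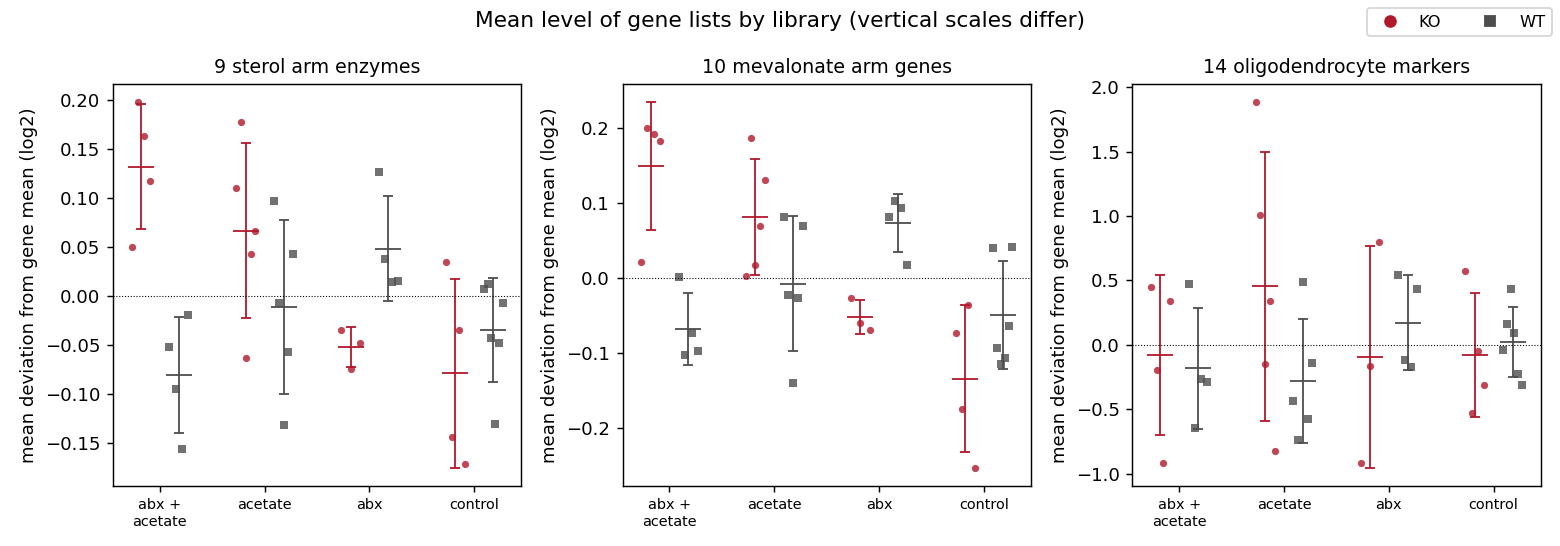
Mean deviation of each library from the gene means (log2), over the 9 sterol arm enzymes, the 10 mevalonate arm genes and the 14 oligodendrocyte markers, by treatment, with KO left of WT; bars give the mean and SD, and vertical scales differ. For the sterol arm the 4 KO_abx_and_acetate libraries (0.05 to 0.198) lie above the 4 WT_abx_and_acetate libraries (-0.156 to -0.019).

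KO was compared with WT within each treatment. In cortex of mice given antibiotics with acetate, all 9 enzymes had a positive log2 fold of KO over WT, with a median of 0.21 against 0.002 over all genes. None passed the adjusted threshold in limma, where 0.0134% of all genes did, and 4 had an unadjusted p under 0.05, where 3.7% of all genes did. Dhcr7 stood at 4.89, 5.05, 4.89 and 4.94 in KO_abx_and_acetate, against 4.56, 4.62, 4.58 and 4.48 in WT_abx_and_acetate. Its lowest KO library lay well above its highest WT library. The fitted log2 fold was 0.37 ± 0.08, a 1.29-fold difference, with an unadjusted p of 5.43e-05 and an adjusted p of 0.269.

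Nsdhl had a log2 fold of 0.30 ± 0.08 (adjusted p = 0.705, limma) and Sqle one of 0.35 ± 0.10 (adjusted p = 0.894). Groups did not overlap for Sqle, Nsdhl and Dhcr7, all higher in KO, against 3.15% of all genes. Msmo1 differed by 0.33 ± 0.10 but its groups overlapped, since KO_abx_and_acetate 1 at 5.98 lay below WT_abx_and_acetate 4 at 6.04. KO_abx_and_acetate held 3 females and 1 male and WT_abx_and_acetate 1 female and 3 males, so sex was a term of the fit. Within sex, Dhcr7 was at 4.89 to 5.05 in KO females against 4.48 in the WT female, and at 4.89 in the KO male against 4.56 to 4.62 in WT males. Nsdhl, which is X-linked, was at 4.44 to 4.51 in KO females against 4.04 in the WT female, and at 4.24 in the KO male against 4.09 to 4.18 in WT males. Both genes were higher in KO in either sex. This was not so for Lss, Ebp and Sc5d, whose means in KO females (5.63, 3.31 and 5.72) lay below the value of the WT female (5.90, 3.49 and 5.77). With a fit to only the 2 groups 6 of 9 enzymes were positive. In the same comparison 14 of 14 oligodendrocyte markers (median 0.21) and 10 of 10 microglia markers (median 0.20) were positive, and with the oligodendrocyte mean as a covariate the enzymes' median was 0.19 with 9 positive.

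With acetate alone 7 of 9 enzymes had a positive log2 fold of KO over WT, with a median of 0.07. No enzyme passed the adjusted threshold in limma, where 0.00672% of all genes did, and 2 had an unadjusted p under 0.05, where 5.97% of all genes did. Sc5d had a log2 fold of 0.18 ± 0.07 and Dhcr7 one of 0.17 ± 0.07, both with an adjusted p of 0.827, and Sqle one of 0.13 ± 0.09 (adjusted p = 0.910). Without WT_acetate 4, or without KO_acetate 1, the count of 2 was 1, and without KO_acetate 3 it was 3. The median of 0.07 became 0.11 if WT_acetate 1 was left out, 0.04 if KO_acetate 2 was and 0.13 if KO_acetate 3 was. With the 3 libraries of intermediate Shank3 left out the median was 0.15, with 8 positive and 1 counted. Without the 4 of discordant Y-linked genes the median was 0.13, with 8 positive and 0 counted. Oligodendrocyte markers were positive for 14 of 14 here, with a median of 0.78, and with their mean as a covariate the enzymes' median was 0.08. At an unadjusted p under 0.05, 9 of these 14 markers were higher in KO. Striatal neuron markers were positive for 9 of 9, with a median of 0.69 and 4 at that p. Excitatory neuron markers were positive for 4 of 10, with a median of -0.32, 3 being lower and 1 higher at that p. Microglia markers were positive for 0 of 10, with a median of -0.10, and endothelial markers for 2 of 9, with a median of -0.19. The mean deviation of the excitatory markers was -0.819 in KO_acetate 1. It ran from 0.040 to 0.103 in KO_acetate 2 to 5, against -0.173 to 0.130 in WT_acetate. That of the striatal markers was 2.916 in KO_acetate 1. It ran from -0.211 to 0.069 in KO_acetate 2 to 5, against -0.197 to 0.060 in WT_acetate. The difference in the means of these 2 lists therefore lay mainly in KO_acetate 1. Beyond the covariate, the part of the marker lists in this comparison was not tested.

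On antibiotics alone 1 of 9 enzymes, Dhcr7, had a positive log2 fold of KO over WT, and the median was -0.12. In limma none passed the adjusted threshold, where 0.0134% of all genes did, and 2 had an unadjusted p under 0.05, where 3.78% of all genes did. These were Msmo1, at -0.23 ± 0.11, and Dhcr7, at 0.18 ± 0.08, each with an adjusted p of 0.995, as for Cyp51 at -0.21 ± 0.12. Groups did not overlap for Msmo1 alone, lower in KO, against 5.33% of all genes. Dhcr7 stood at 4.8, 4.94 and 4.93 in KO_abx, against 4.78, 4.64, 4.63 and 4.8 in WT_abx, so the groups met at 4.8. With 3 KO libraries the count was unsteady: it was 0 without KO_abx 3, 1 without WT_abx 1, WT_abx 2, WT_abx 3, KO_abx 1 or KO_abx 2, and 3 without WT_abx 4. A further enzyme was positive without WT_abx 1, WT_abx 4 or KO_abx 2. Oligodendrocyte markers had a median of -0.37, with 1 of 14 positive, and endothelial markers one of -0.22, with 0 of 9 positive. The oligodendrocyte mean as a covariate was 1 of 11 other settings, over which the enzymes' median ran from -0.15 to -0.11. The part of the endothelial markers was not tested.

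In controls 2 of 9 enzymes had a positive log2 fold of KO over WT, with a median of -0.04. By limma 0 of 9 passed the adjusted threshold, where 0.0202% of all genes did, and 0 had an unadjusted p under 0.05, where 4.0% of all genes did. With voom weights 0 of 9 passed as well. Sc5d had a log2 fold of -0.14 ± 0.07, Cyp51 one of -0.13 ± 0.10 and Sqle one of -0.10 ± 0.09, each with an adjusted p of 1.0. The count of 0 was 1 without WT_control 4, WT_control 6, KO_control 1 or KO_control 3. The count of 2 positive was 1 without WT_control 4, WT_control 5 or KO_control 1 and 5 without KO_control 4. The median of -0.04 was -0.12 without KO_control 1, -0.07 without WT_control 3 or KO_control 3, -0.06 without WT_control 4, -0.01 without KO_control 2 and 0.01 without KO_control 4.

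Averaged over treatments 6 of 9 enzymes had a positive log2 fold of KO over WT, with a median of 0.01. The adjusted threshold in limma was passed by none, where 0.0202% of all genes did. Dhcr7 alone had an unadjusted p under 0.05, where 5.25% of all genes did, at 0.18 ± 0.04 with an adjusted p of 0.144. Its adjusted p ran from 0.0583 to 0.477 over 45 alternatives, and its log2 fold from 0.16 to 0.20. Nsdhl and Sqle both stood at 0.06, with an SE of 0.04 and 0.05 and an adjusted p of 0.957. The median of 0.01 ran from 0.00 without KO_acetate 2 or KO_abx_and_acetate 2 to 0.05 without WT_abx_and_acetate 4.

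**Figure D4:**
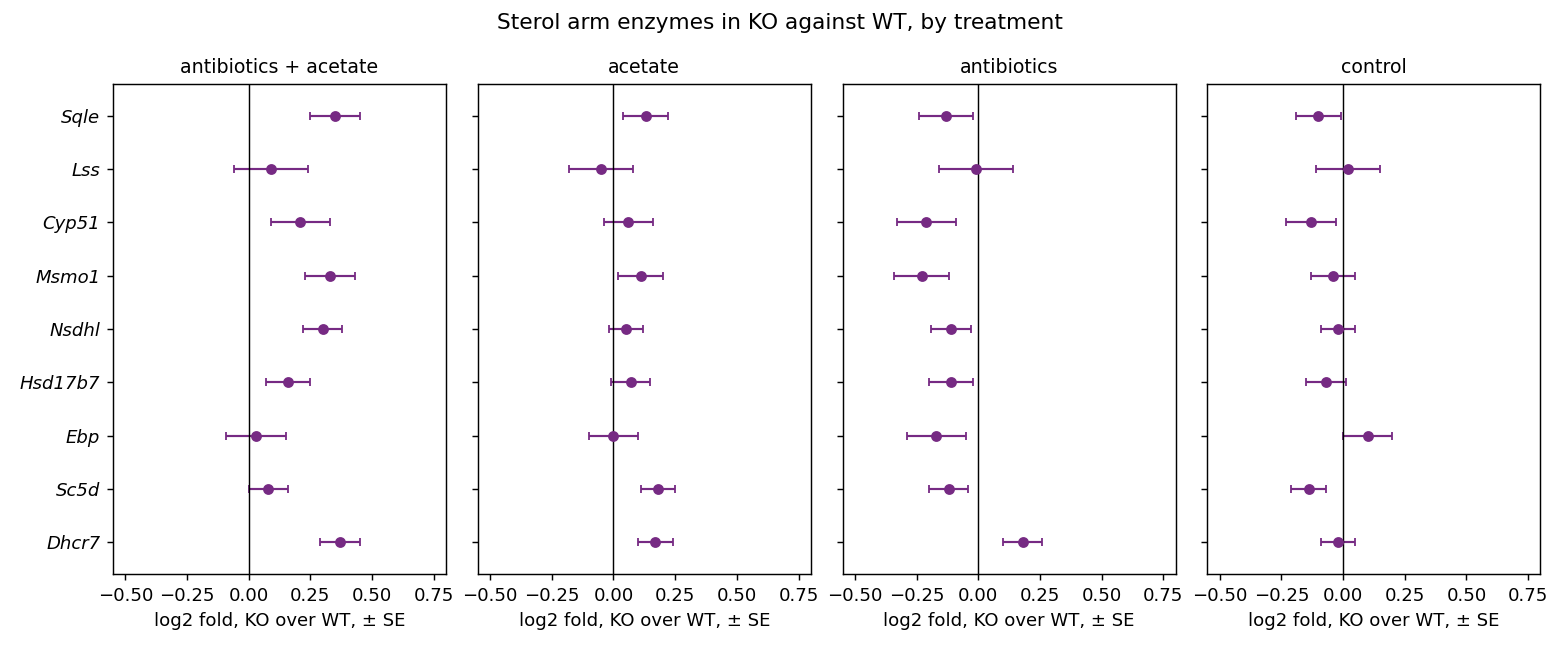
Log2 fold of KO over WT for each enzyme within each treatment, with bars for SE from the limma fit. All 9 values lie right of 0 with antibiotics and acetate (median 0.21), against 2 of 9 in controls (median -0.04).

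Antibiotics alone were compared with control. In KO cortex 5 of 9 enzymes had a positive log2 fold, with a median of 0.03. None passed the adjusted threshold in limma, where 0.0134% of all genes did, and 1, Dhcr7, had an unadjusted p under 0.05, where 3.3% of all genes did. Dhcr7 had a log2 fold of 0.19 ± 0.08, Sqle one of 0.19 ± 0.11 and Ebp, the sterol isomerase, one of -0.24 ± 0.12, each with an adjusted p of 0.999. Groups did not overlap for Sqle alone, higher with antibiotics, against 3.85% of all genes. Its lowest KO_abx value and highest KO_control value both round to 6.0 log2 CPM. The count of 1 at an unadjusted p under 0.05 was 0 without KO_control 2, KO_control 4, KO_abx 2 or KO_abx 3, and 3 without KO_control 1. The median of 0.03 was 0.07 without KO_control 1 or KO_control 3, -0.01 without KO_control 2 or KO_control 4 and 0.00 without KO_abx 3.

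In WT cortex 7 of 9 had a positive log2 fold of antibiotics over control, with a median of 0.04. No enzyme passed the adjusted threshold in limma, where 0% of all genes did, and 2 had an unadjusted p under 0.05, where 9.05% of all genes did. Groups did not overlap for Sqle and Nsdhl, both higher with antibiotics, against 2.14% of all genes. Nsdhl stood at 4.26, 4.44, 4.32 and 4.24 in WT_abx, against 4.01 to 4.18 (median 4.11) in WT_control, above every control. Its log2 fold was 0.20 ± 0.07 (adjusted p = 0.365), and Sqle had one of 0.21 ± 0.09 (adjusted p = 0.484) and Lss one of 0.20 ± 0.13 (adjusted p = 0.683). The count of 2 at an unadjusted p under 0.05 was 1 without WT_control 4, WT_control 5, WT_abx 2 or WT_abx 3. The count of 7 positive was 4 without WT_abx 1, and the median of 0.04 was 0.12 without WT_abx 3, 0.09 without WT_abx 2 and -0.02 without WT_abx 1. Leaving out a control gave 0.08 (WT_control 1), 0.07 (WT_control 6) or 0.02 (WT_control 4).

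Both agents together were compared with control. The comparisons share the control libraries of each genotype with those above. In KO cortex 8 of 9 enzymes, all but Ebp, had a positive log2 fold, with a median of 0.21 against 0.006 over all genes. In limma none passed the adjusted threshold, where 0% of all genes did, and 5 had an unadjusted p under 0.05, all higher, where 7.42% of all genes did. Sqle, at 6.27 to 6.44 in KO_abx_and_acetate and 5.76 to 6.0 in KO_control, had a log2 fold of 0.45 ± 0.10, the largest of the arm in this comparison. Its unadjusted p was 9.35e-05 and its adjusted p 0.401.

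Nsdhl had a log2 fold of 0.32 ± 0.08 (adjusted p = 0.401, limma) and Dhcr7 one of 0.23 ± 0.08 (adjusted p = 0.496). Groups did not overlap for Sqle and Dhcr7, both higher with both agents, against 3.83% of all genes. The count of 5 was 3 without KO_control 2 or without KO_abx_and_acetate 3, and the median of 0.21 was 0.29 without KO_control 1. In WT cortex 2 of 9 had a positive log2 fold, with a median of -0.04. By limma 0 of 9 passed the adjusted threshold, where 0.726% of all genes did, and 1, Dhcr7, had an unadjusted p under 0.05, where 14.4% of all genes did. Dhcr7 had a log2 fold of -0.15 ± 0.07 (adjusted p = 0.315), Msmo1 one of -0.17 ± 0.09 (adjusted p = 0.411) and Hsd17b7 one of -0.12 ± 0.08 (adjusted p = 0.486). The WT groups did not overlap for Dhcr7 alone, lower with both agents, against 4.73% of all genes. The WT count of 2 positive ran from 1 without WT_control 4 to 4 without WT_control 1, WT_control 6 or WT_abx_and_acetate 3. The count of 1 at an unadjusted p under 0.05 was 0 without WT_control 2 or WT_abx_and_acetate 1 and 2 without WT_control 3. The WT median of -0.04 was -0.01 without WT_abx_and_acetate 3, -0.11 without WT_abx_and_acetate 4 and -0.06 without WT_control 6 or WT_abx_and_acetate 1.

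The enzymes were next compared with one another over the 35 libraries. Of 36 pairs, 12 had a permutation p for Pearson's r under 0.05 after Benjamini-Hochberg adjustment over the pairs, all 12 positive, and 12 did so for Spearman's rho. The pairs ran from an r of -0.30 to 0.80, with a median of 0.30. Sqle and Nsdhl were the closest pair, with r = 0.80 and rho = 0.79 (permutation p = 1e-05 for each, the smallest that 100000 permutations can give, and 0.00018 adjusted) and r = 0.78 without the 2 libraries farthest from the median of Sqle. Msmo1 and Sc5d followed at r = 0.66 and rho = 0.67 (adjusted permutation p = 0.00018 for each), with r = 0.64 without 2 libraries. Nsdhl and Dhcr7 stood at r = 0.61 and rho = 0.62 (adjusted permutation p = 0.0012 and 0.000936), with r = 0.56 without 2 libraries.

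Sqle and Msmo1 were each in 5 of the 12 pairs, Nsdhl and Sc5d in 4, Dhcr7 in 3, and Lss, Cyp51 and Hsd17b7 in 1. Ebp was in 0, its r with the other enzymes running from -0.30 to 0.18. The permutations ran over all libraries regardless of group, so the permutation p-values of the pairs also take in differences between groups. With group means and sex removed, the r was 0.61 for Sqle with Nsdhl, 0.66 for Msmo1 with Sc5d and 0.37 for Nsdhl with Dhcr7. The median over 36 pairs was then 0.24 and 29 pairs were positive, with no p computed.

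**Figure D5:**
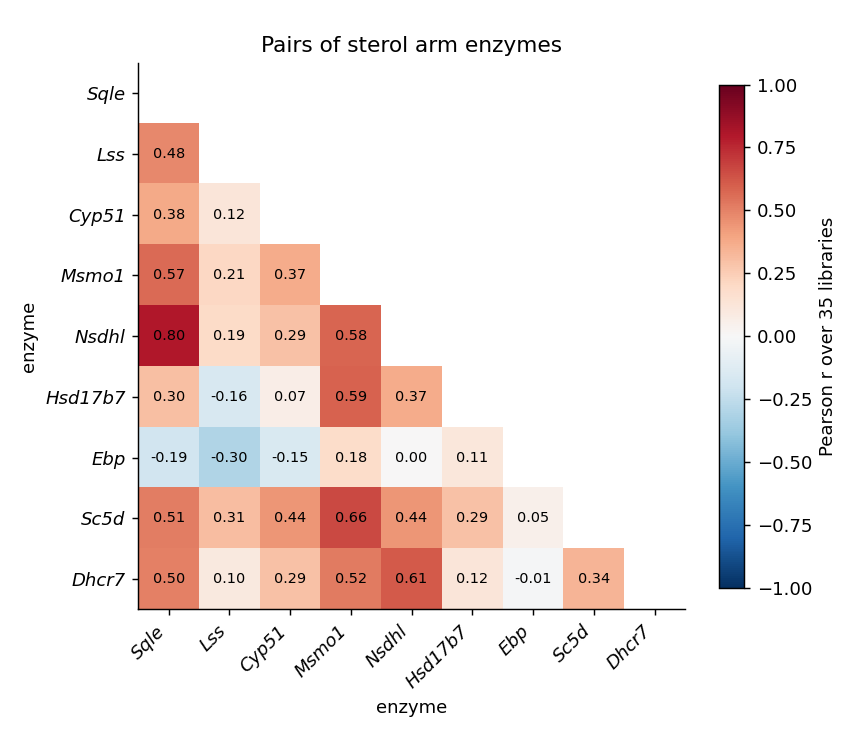
Pearson r over 35 libraries for each pair of the 9 sterol arm enzymes, printed in the cell and coloured from -1 (blue) to 1 (red). Sqle with Nsdhl is the closest pair (0.80), and the Ebp row and column stay between -0.30 and 0.18.

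Among the 10 genes outside the arm whose values were most like the mean of the 9 enzymes over 35 libraries were Fdps (r = 0.79), Hmgcs1 (0.78), Mvk (0.73), Fdft1 (0.71), Insig1 (0.70), Idi1 (0.64), Idh1 (0.64), Mob3a (0.63) and Stard4 (0.62). These r values are a description and carry no test. Of the 10, 5 were of the mevalonate arm (Fdps, Hmgcs1, Mvk, Fdft1, Idi1). Insig1, which holds SREBP in the endoplasmic reticulum, and Stard4, a sterol carrier, are in the list for SREBP control and sterol uptake. With group means and sex removed, Fdps ranked 10th of the genes, at r = 0.62, while Grhl3 and Ubxn10 led at 0.70. Hmgcs1, Fdft1, Mvk, Insig1 and Idi1 then ranked 15, 31, 68, 69 and 100. Stard4, Mob3a and Idh1 ranked 202, 244 and 467. Srebf2, which encodes SREBP2, had an r of 0.29.

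The other genes of the pathway gave counts beside those of the sterol arm. Of the 10 mevalonate arm genes, 10 had a positive log2 fold of acetate over control in KO, with a median of 0.22, led by Acat2 at 0.34 ± 0.09 and Fdps at 0.30 ± 0.08 (both adjusted p = 0.205, limma). In WT 6 of 10 were positive, with a median of 0.04. On antibiotics 9 of 10 were positive in KO, with a median of 0.19, and 2 of 10 in WT, with a median of -0.15. Fdps had the smallest p of the list in KO, at 0.33 ± 0.10, and Mvk in WT, at -0.32 ± 0.09 (adjusted p = 0.582, limma). Idi1, an isomerase of the isoprenoid building block, had the next smallest in each genotype. Its log2 fold was 0.35 ± 0.13 in KO (adjusted p = 1.0) and -0.33 ± 0.12 in WT (adjusted p = 0.726). The difference of the responses on antibiotics, KO minus WT, was positive for 9 of 10, with a median of 0.39. It was 0.67 ± 0.18 for Idi1 (adjusted p = 1.0) and 0.47 ± 0.13 for Mvk.

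Tm7sf2, a sterol reductase of the arm outside the chosen 9, had a log2 fold of antibiotics with acetate over antibiotics of 0.09 ± 0.13 in KO (adjusted p = 1.0, limma) and -0.11 ± 0.12 in WT (adjusted p = 0.914). Of 14 genes for SREBP control and uptake, 12 were positive for acetate over control in KO, with a median of 0.05, among them Insig1 at 0.34 ± 0.10 (adjusted p = 0.205), while Lrp1, an endocytic receptor, stood at -0.32 ± 0.10 (adjusted p = 0.228). In WT 10 of 14 were positive, with a median of 0.06. No p over these lists was computed.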

How the data were processed

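The authors deposited log2 CPM values for 35 mPFC libraries, in the form that limma's voom gives (log2 of reads plus 0.5, scaled to library size); limma, without a version, is named in the submitters' processing notes. For the aligner, counter, strand setting, genome build and low-count filter: not given in the sources used here. Reads came out whole for 100% of values within a tolerance of 0.01, which gave the depths. All 35 libraries entered 1 limma 3.58.1 fit (R 4.3.3) of the 8 group means with sex added and a prior variance following the mean, with 17 comparisons, no filter and no pseudocount. P-values are 2-sided and Benjamini-Hochberg adjusted over all 14870 genes, threshold 0.05. The script was tested on simulated data. Correlations used Python 3.11.15 and scipy 1.17.1 with 100000 permutations. Statistics are given for the 3 enzymes with the smallest p of a comparison, and for the 2 such genes of another list. Members and lists were chosen with earlier results of these data known. Positions and exon lengths are from GENCODE (GRCm38), promoters from RefSeq (GRCm38.p6). Alternatives left out or added libraries, covariates, weights, scaling, filters and a pseudocount of 1. Log2 values of few reads are imprecise, but each enzyme had at least 142. Some genes of the other lists are not reported here.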

Additional observations from a re-analysis of the deposited data

Results flagged for a closer look

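Ebp stood at 3.49 log2 CPM in WT_abx_and_acetate 4, apart from the other 3 libraries of the group at 3.23 to 3.26. This is the shallowest library, with 142 reads for Ebp, and the only female of its group. It was 1 of 63 gene and group sets searched for a library far from the others, a search that flags about 1 in 20 sets by chance.

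Several enzymes differed in opposite directions in the 2 genotypes when acetate was added to antibiotics, in every library set against the mean of its comparison group. How many of all genes would do so was not counted. Hsd17b7 did so narrowly in WT, at 4.82 to 4.99 with acetate against a WT_abx mean of 5.0. Its fitted log2 fold there was -0.07 ± 0.09. The KO difference minus the WT difference was 0.60 for Msmo1 (0.29 in KO and -0.31 in WT), 0.47 for Sqle (0.26 in KO and -0.21 in WT), 0.42 for Nsdhl (0.21 in KO and -0.20 in WT) and 0.30 for Hsd17b7 (0.22 in KO and -0.08 in WT), as plain differences of group means. The limma test of this difference, with sex in the fit, gave an adjusted p of 1.0 for each.

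Against control, Msmo1 differed by -0.20 between genotypes under antibiotics (-0.07 in KO and 0.13 in WT), and Dhcr7 by 0.40 under antibiotics with acetate (0.24 in KO and -0.16 in WT). These 2 differences were not tested.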

How the results depend on the processing

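Of 2145 values recomputed for 85 results, 2138 kept their direction or stayed within the spread, 0 reversed beyond it and 0 crossed the threshold. No enzyme passed an adjusted p of 0.05 under any alternative run. The other 7 values were medians of the 9 enzymes, whose mean had a pooled within-group SD of 0.071. Medians near 0 did change sign when 1 library was left out. KO over WT in controls reached 0.01, and antibiotics over control reached -0.02 in WT and -0.01 in KO. Without the 3 libraries of intermediate Shank3 the KO against WT median in acetate was 0.15, and without the 4 of discordant Y-linked genes the WT median of antibiotics over control was 0.12. Leaving out 1 library at a time moved 5 medians beyond the spread. Over the libraries left out, the median ranged from 0.07 to 0.21 for acetate over control in KO. It ranged from 0.23 to 0.34 for the acetate response on antibiotics (KO minus WT) and from -0.12 to 0.01 for KO over WT in controls. The range was -0.02 to 0.12 for antibiotics over control in WT and 0.14 to 0.29 for both agents over control in KO. The median with all libraries lay inside each range, so each shift was smaller than the range. KO_control 1 gave 3 of these extremes (0.21, -0.12 and 0.29), WT_abx 4 gave 0.34 and WT_abx 3 gave 0.12. The causes were not tested. A fit to only the groups compared was not run for the 3 averaged comparisons, which use all 8 groups. Replicate numbers come from the order of the records and pair no libraries. Groups of 3 to 6 libraries limit what could be detected.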

Other observations

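Genes of lipid metabolism next to the sterol arm were looked at after their values were seen. Of 11 fatty acid synthesis genes, 10 had a positive log2 fold of antibiotics with acetate over antibiotics in KO, with a median of 0.08, and 1 of 11 did in WT, with a median of -0.11. Of 11 genes of cholesterol efflux, turnover and esterification, 2 were positive in KO, with a median of -0.04, and 6 in WT, with a median of 0.01. At an unadjusted p under 0.05 in limma there were 0 genes of either list in either genotype, and 0 passed the adjusted threshold.

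Cyp46a1, the neuronal enzyme that hydroxylates cholesterol for export from the brain, ran against the sterol arm: its r with the mean of the 9 enzymes over 35 libraries was -0.48, rank 14756 from the top among genes outside the arm. Ggps1, which leads from the mevalonate arm to other isoprenoids, had an r of -0.20, against 0.79 for Fdps of the same list. These r values describe the libraries and carry no test.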
